A study of Mus musculus with 2 samples.

Results

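The 10 genes described here encode enzymes that remove superoxide and peroxides. They are the glutathione peroxidases Gpx1, Gpx3 and Gpx4, the peroxiredoxins Prdx1, Prdx2, Prdx3, Prdx5 and Prdx6, catalase (Cat) and the mitochondrial superoxide dismutase Sod2. They were chosen by name, and all of their transcripts in the deposited table were kept. This gave 24 of 23178 listed transcripts, and 10 of 12395 genes after transcripts were summed.

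RNA sequencing had been run on 2 mouse hearts of the C57BL/6 strain. The first group, CHAPIR, held 1 heart from a mouse given a mimic of CHAPIR, a piRNA of the heart, at 30 mg/kg from an osmotic minipump over 14 days. The second group, NC, held 1 heart from a mouse given a scrambled control mimic, whose dose is not stated in the labels. Age and sex are not stated either. With 1 library per group there is no replicate check, no p-value and no error on any value, and each difference describes these 2 hearts only. The values are treated as FPKM, a measure of RNA level corrected for transcript length and library size, which was inferred from the table. Their depth is unknown.

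The summed transcript values were alike, at 401938 in the CHAPIR heart, against 394675 in the NC heart. FPKM values are already corrected for library size, so these sums do not compare depth or quality. All 12 cardiomyocyte markers were present in both. All 4 Y-linked genes examined had values above 0 in the CHAPIR heart and stood at 0 in the NC heart, so the apparent sex of the animals and the mimic cannot be told apart in any comparison below.

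Superoxide from the respiratory chain and from oxidases is turned into hydrogen peroxide by superoxide dismutases. Hydrogen peroxide is then reduced to water by catalase, mainly in peroxisomes, by peroxiredoxins, which use a reactive cysteine that the thioredoxin system restores, and by glutathione peroxidases, which spend glutathione. Gpx1, Gpx3 and Gpx4 carry selenocysteine at the catalytic position, encoded by a UGA codon (TGA in DNA) that would otherwise stop translation. The heart depends on these enzymes because its dense mitochondria produce peroxide continuously.

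The catalytic codons show how the families differ in sequence. Each line gives coding sequence of the most abundant listed transcript, 5′ to 3′, from GENCODE M21 (build GRCm38), with the catalytic codon in capitals and 15 bases on each side.
Gpx1: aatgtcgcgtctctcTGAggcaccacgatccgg
Gpx3: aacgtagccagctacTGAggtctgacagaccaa
Gpx4: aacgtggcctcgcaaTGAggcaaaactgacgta
Prdx1: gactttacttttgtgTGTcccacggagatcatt
Prdx2: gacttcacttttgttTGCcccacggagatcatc
Prdx3: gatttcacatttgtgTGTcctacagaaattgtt
Prdx5: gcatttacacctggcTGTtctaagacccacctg
Prdx6: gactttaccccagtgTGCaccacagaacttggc
The selenocysteine codon is number 47 in Gpx1 and number 73 in both Gpx3 and Gpx4. The cysteine codon is number 52 in Prdx1, 51 in Prdx2, 109 in Prdx3, 96 in Prdx5 and 47 in Prdx6.

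Gpx3 was higher in the CHAPIR heart while most of the other genes were slightly lower. Its summed level was 254 FPKM in the CHAPIR heart, against 89.5 FPKM in the NC heart, 2.83 times as high. Prdx1 was the member with the lowest ratio, at 53.3 FPKM in the CHAPIR heart, against 81.5 FPKM in the NC heart. The log2 ratio, computed as log2(CHAPIR + 1) minus log2(NC + 1), was positive for 2 members and negative for 8. The smallest in size, that of Gpx1 at 0.01, turned negative under quantile normalization and when both libraries were scaled to the same sum. The median log2 ratio over the 10 genes was -0.11, beside 0.01 over the 11416 genes that reached 1 FPKM in either library. Ratios below 0 were found for 49.1% of those 11416 genes, and for 66.1% of the 442 averaging at least 100 FPKM. At a threshold of 1.5-fold, 1 member was higher and 1 lower. Among all 11416 genes, 6.81% passed that threshold upward and 3.85% downward. All 10 members average above 10 FPKM, where fewer genes passed. Of the 3651 genes averaging 10 to 100 FPKM, 160 passed upward and 90 downward. Of the 442 averaging at least 100 FPKM, 12 passed upward and 5 downward. A count of 1 gene of 10 in each direction is too small to be set apart from these shares.

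**Figure D1:**
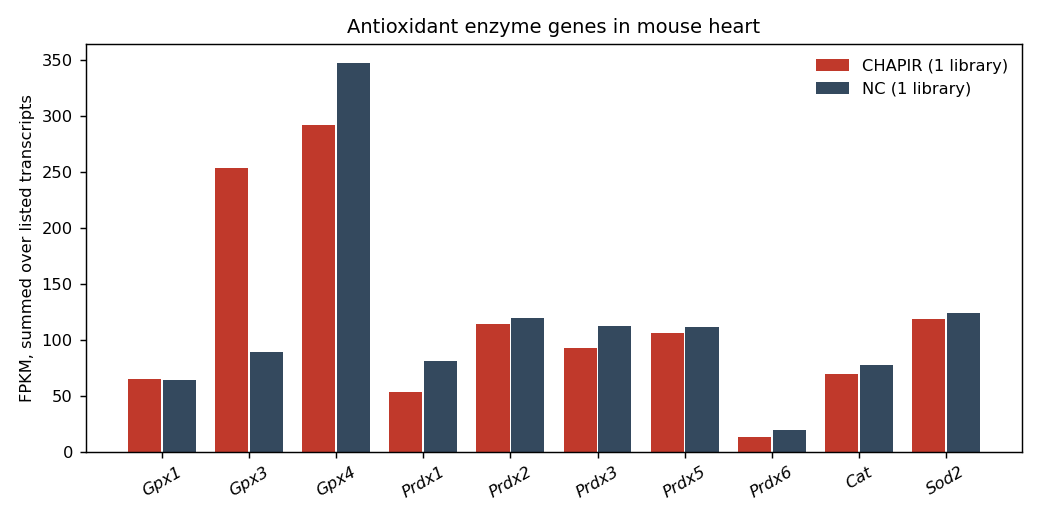
FPKM of each gene, summed over its listed transcripts, in the CHAPIR heart (red, left bar) and the NC heart (dark, right bar), with 1 library per group and no error bars. Gpx3 stands at 254 FPKM in the CHAPIR heart, against 89.5 FPKM in the NC heart, and the other pairs of bars lie closer together.

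Among the glutathione peroxidases, Gpx3 stood apart. Gpx3 encodes the secreted enzyme of blood plasma, made chiefly by kidney and also by heart and fat. The gene lies on chromosome 11 (GRCm38, 54902453 to 54910377, plus strand). Its log2 ratio was 1.49, the fourth-highest place (rank 4) among the 442 genes averaging at least 100 FPKM. Across those genes the log2 ratio had a median of -0.07, with a 5th percentile of -0.33 and a 95th percentile of 0.38. The gene made up 21.5% of the summed level of the 10 genes in the CHAPIR heart, against 7.80% in the NC heart.

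The difference in Gpx3 came from its full-length transcript. Gpx3-201 (ENSMUST00000082430.9), with 5 exons and 1594 bases, was at 253 FPKM in the CHAPIR heart, against 82.6 FPKM in the NC heart. Gpx3-203 (ENSMUST00000149324.1) went the other way, at 0.46 FPKM in the CHAPIR heart, against 6.91 FPKM in the NC heart. Gpx3-203 holds an additional exon of 96 bases that Gpx3-201 lacks and ends inside the last coding exon. It accounted for 0.18% of the summed Gpx3 level in the CHAPIR heart, against 7.72% in the NC heart. No other annotated gene overlaps the exons of these transcripts, and no near-identical copy of them was found among the annotated transcripts.

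Gpx4 and Gpx1 did not follow Gpx3. Gpx4 (chromosome 10, 80047166 to 80056439, plus strand), which reduces lipid hydroperoxides within membranes and is the enzyme best known for blocking ferroptosis, had the highest level of the 10 genes in both libraries. It was at 292 FPKM in the CHAPIR heart, against 347 FPKM in the NC heart, a log2 ratio of -0.25, inside the 5th to 95th percentile range of genes of that level. Its 3 listed transcripts were all lower in the CHAPIR heart. Gpx4-202 was at 273 FPKM in the CHAPIR heart, against 323 FPKM in the NC heart. Gpx4-201 starts 549 bases further downstream in a first exon of its own, known in mouse testis for the nuclear form of the enzyme. It was at 13.8 FPKM in the CHAPIR heart, against 16.3 FPKM in the NC heart, which is 4.71% of the summed Gpx4 level in either heart. Near-identical copies of Gpx4 transcripts are annotated as 2 other genes, neither in the table, so its level is uncertain to the extent that they share reads. Gpx1 (chromosome 9, 108338903 to 108340343, plus strand), the abundant cytosolic and mitochondrial enzyme, was at 64.9 FPKM in the CHAPIR heart, against 64.6 FPKM in the NC heart, a log2 ratio of 0.01. Its shorter transcript Gpx1-202, which carries no annotated selenocysteine, was at 8.92 FPKM in the CHAPIR heart, against 9.61 FPKM in the NC heart.

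**Figure D2:**
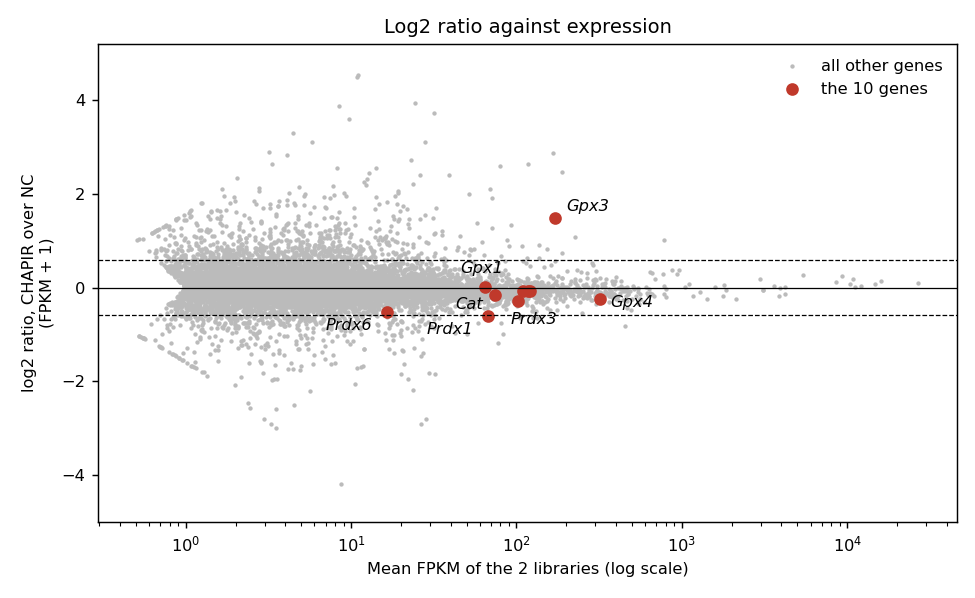
Log2 ratio of CHAPIR over NC (FPKM + 1) against mean FPKM on a log axis for the 11416 genes, with the 10 genes in red and dashed lines at 1.5-fold. Gpx3, at a log2 ratio of 1.49, lies above the upper line, Prdx1, at -0.60, just below the lower line, and the other members between them.

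All 5 peroxiredoxin genes had negative log2 ratios, from -0.60 to -0.06. Their summed level was 380 FPKM in the CHAPIR heart, against 444 FPKM in the NC heart. Ratios below 0 were found for 66.1% of the 442 genes averaging at least 100 FPKM, and for 53.6% of the 3651 genes averaging 10 to 100 FPKM, the band that holds Prdx1 and Prdx6.

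Prdx1 and Prdx2 are the cytosolic peroxiredoxins that work as dimers with a pair of cysteines per subunit. Prdx1 (chromosome 4, 116685544 to 116700822, plus strand) was at 0.654 times its NC level in the CHAPIR heart. Its log2 ratio of -0.60 lay below -0.40, the 5th percentile of the 3651 genes averaging 10 to 100 FPKM. With a pseudocount of 5 it was -0.57, short of the 1.5-fold threshold. Transcript Prdx1-204 (ENSMUST00000135573.7) carried nearly all of it, at 51.9 FPKM in the CHAPIR heart, against 79.9 FPKM in the NC heart. Prdx1-202, which has the same coding length of 597 bases but another first exon, was listed at 0 in the CHAPIR heart, against 0.96 FPKM in the NC heart. Prdx1-201 was at 1.42 FPKM in the CHAPIR heart, against 0.61 FPKM in the NC heart. The coding part of Prdx1 has 3 near-identical annotated pseudogene copies, none of them in the table, which could share its reads.

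Prdx2 (chromosome 8, 84969587 to 84974834, plus strand), which is also abundant in red cells, was at 114 FPKM in the CHAPIR heart, against 119.7 FPKM in the NC heart, a log2 ratio of -0.07. It had 5 listed transcripts, of which 4 had negative ratios, although Prdx2-204, at -0.00, turned positive after rescaling that left out mitochondrial transcripts and the 50 top genes. Prdx2-201, the most abundant, was at 62.3 FPKM in the CHAPIR heart, against 65.9 FPKM in the NC heart. Prdx2-202 was the exception, at 11.4 FPKM in the CHAPIR heart, against 9.03 FPKM in the NC heart. The exons of Prdx2 share 173 bases with Junb on the opposite strand, and Junb itself was at 32.1 FPKM in the CHAPIR heart, against 12.6 FPKM in the NC heart. They share 177 bases with Rnaseh2a, also on the opposite strand, which was at 5.74 FPKM in the CHAPIR heart, against 5.14 FPKM in the NC heart. The libraries were made with a strand-marking dUTP step, per the labels' protocols, but the strand setting of the quantification is not stated.

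Prdx3 and Prdx5 serve the mitochondria. Prdx3 (chromosome 19, 60864051 to 60874556, minus strand), which is found in the mitochondrial matrix, was at 92.6 FPKM in the CHAPIR heart, against 112 FPKM in the NC heart, a log2 ratio of -0.27 from its only annotated transcript. Prdx5 (chromosome 19, 6906697 to 6910106, minus strand), which is found in mitochondria, peroxisomes and cytosol, was at 106.5 FPKM in the CHAPIR heart, against 111 FPKM in the NC heart, a log2 ratio of -0.06. That small ratio was the sum of transcripts that differed in opposite directions. Prdx5-201 was at 84.7 FPKM in the CHAPIR heart, against 103 FPKM in the NC heart. Prdx5-203 (ENSMUST00000149261.7) was at 17.9 FPKM in the CHAPIR heart, against 5.39 FPKM in the NC heart, a log2 ratio of 1.56. Prdx5-203 starts 1805 bases downstream of Prdx5-201, within the first intron of Prdx5-201, and 185 of its bases lie outside the exons of Prdx5-201. It made up 16.8% of the summed Prdx5 level in the CHAPIR heart, against 4.84% in the NC heart. Prdx5-204, which skips an exon, was at 3.88 FPKM in the CHAPIR heart, against 2.54 FPKM in the NC heart. Listed exons of Prdx5 share 409 bases with Trmt112 on the opposite strand, and Trmt112 was at 14.7 FPKM in the CHAPIR heart, against 10.4 FPKM in the NC heart.

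Prdx6 (chromosome 1, 161240112 to 161251219, minus strand) is the peroxiredoxin with a single catalytic cysteine, reduced through glutathione, and also has phospholipase activity. It had the lowest level of the 10 genes, at 13.3 FPKM in the CHAPIR heart, against 19.6 FPKM in the NC heart. The log2 ratio of -0.53 lay below the 5th percentile of its level, but short of the 1.5-fold threshold. Prdx6-202 (ENSMUST00000071718.11), with 5 exons, was at 9.81 FPKM in the CHAPIR heart, against 17.1 FPKM in the NC heart, a log2 ratio of -0.74. Prdx6-201, in which an additional exon of 111 bases moves the annotated coding start, was at 3.51 FPKM in the CHAPIR heart, against 2.56 FPKM in the NC heart. Prdx6b, a gene not in the table, is 91.4% identical over 73.1% of Prdx6-201. When only the most abundant transcript of each gene was read, Prdx6 passed the threshold beside Prdx1.

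**Figure D3:**
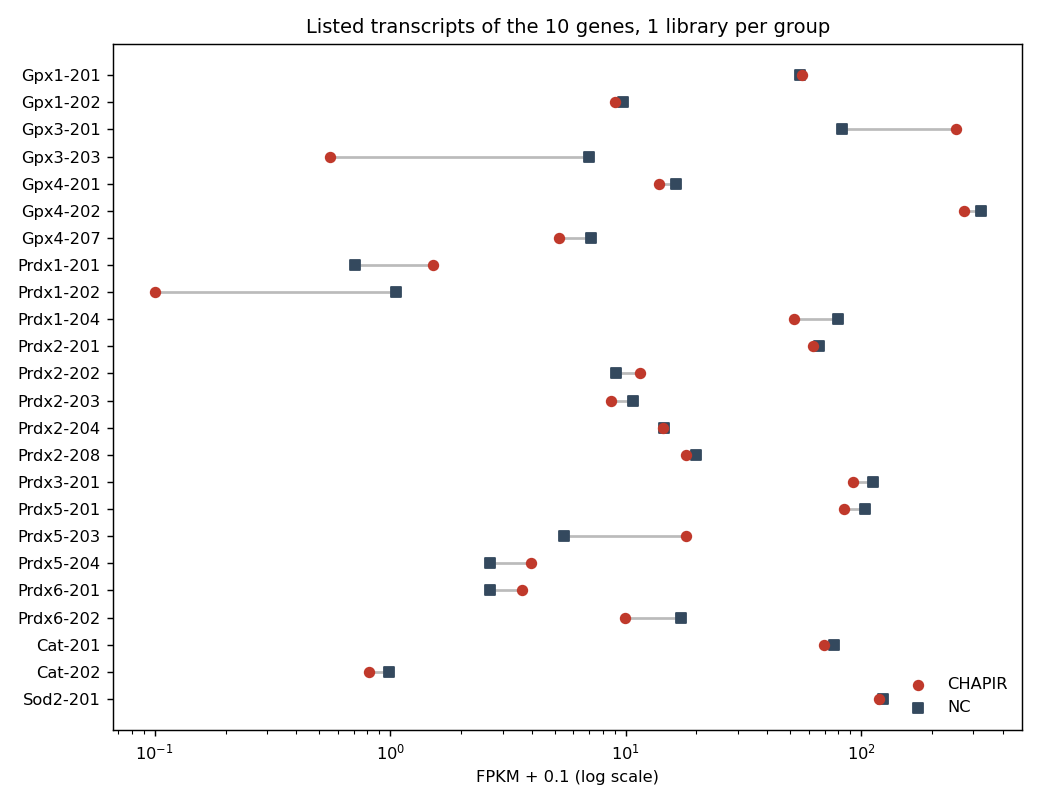
FPKM + 0.1 on a log axis for the 24 listed transcripts, with the CHAPIR library as a red circle, the NC library as a dark square and a grey line joining them. Gpx3-201 and Prdx5-203 have the red circle far to the right of the square, and Gpx3-203, Prdx1-202 and Prdx6-202 have it to the left.

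The enzymes of the other steps differed little. Cat (chromosome 2, 103453849 to 103485160, minus strand), the peroxisomal enzyme that splits hydrogen peroxide without a reductant, was at 69.9 FPKM in the CHAPIR heart, against 77.6 FPKM in the NC heart, a log2 ratio of -0.15. Its full-length transcript Cat-201 made up 99.0% of that level in the CHAPIR heart, against 98.9% in the NC heart. Sod2 (chromosome 17, 13006846 to 13040063, plus strand), the manganese enzyme of the mitochondrial matrix, was at 119 FPKM in the CHAPIR heart, against 124 FPKM in the NC heart, a log2 ratio of -0.06. Of its 8 annotated transcripts 1 was listed.

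Per transcript, 22 of the 24 reached 1 FPKM in at least 1 library. Of these, 3 passed 1.5-fold upward in the CHAPIR heart and 3 downward, 13.6% each way. Among all 18413 transcripts at that level, 16.2% passed upward and 13.7% downward. The spread of single transcripts was therefore wide in this table. Beside all transcripts, those of the members did not pass more often. Of the 18413, 12365 average 1 to 10 FPKM, and smaller shares passed at higher levels. Of the 3544 averaging 10 to 100 FPKM, 285 passed upward and 213 downward. Of the 415 averaging at least 100 FPKM, 18 passed upward and 15 downward. Gpx3-201 and Prdx5-203, which were higher, and Prdx1-204 and Prdx6-202, which were lower, average above 10 FPKM. Whether the members' transcripts passed more often than others of their level was not tested. Of the 8 genes with more than 1 listed transcript, only Cat and Gpx4 had all of their log2 ratios on the same side of 0.

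**Figure D4:**
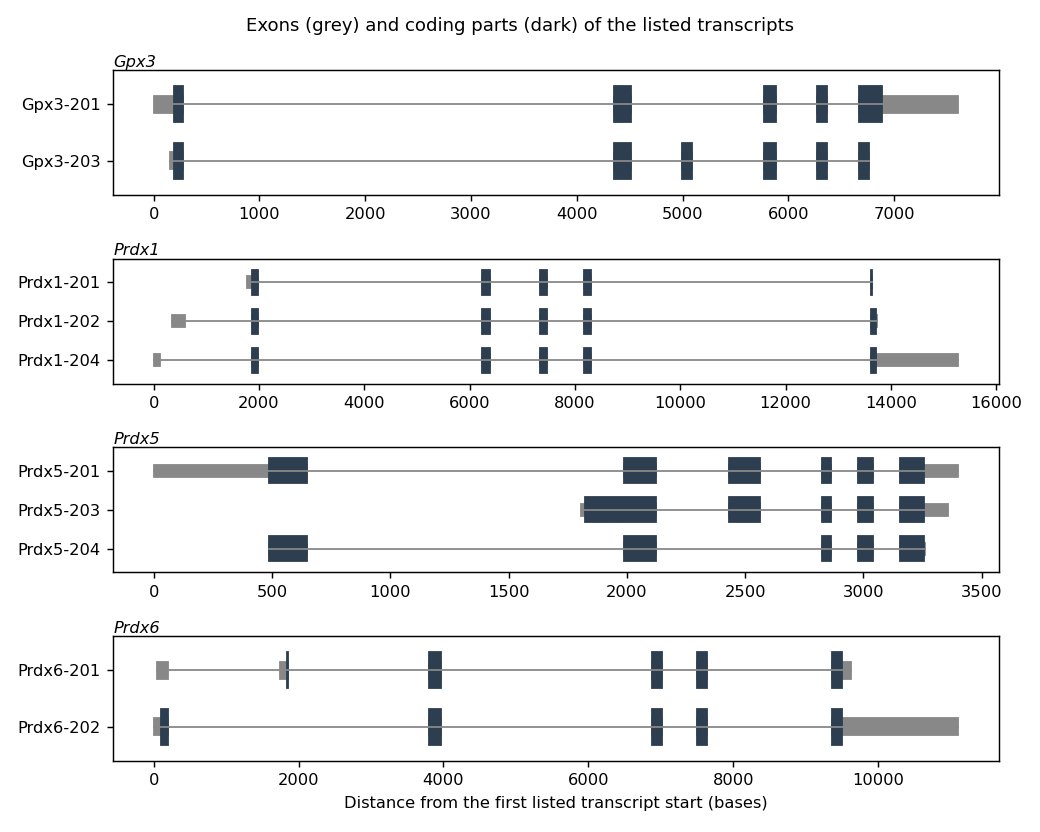
Exons (grey) and their coding parts (dark) of the listed transcripts of Gpx3, Prdx1, Prdx5 and Prdx6, drawn to scale as distance in bases from the first listed transcript start of each gene. Gpx3-203 shows the additional exon of 96 bases, and Prdx5-203 shows a start 1805 bases downstream of that of Prdx5-201.

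Ordered by level, Gpx4, Gpx3, Sod2, Prdx2 and Prdx5 led in the CHAPIR heart, followed by Prdx3, Cat, Gpx1, Prdx1 and Prdx6. The NC library had the order Gpx4, Sod2, Prdx2, Prdx3, Prdx5, Gpx3, Prdx1, Cat, Gpx1 and Prdx6. Gpx3 moved most, to place 2 in the CHAPIR heart, against place 6 in the NC heart. Sod2, Prdx2 and Prdx5 lay within 106.5 to 119 FPKM in the CHAPIR heart, against 111 to 124 FPKM in the NC heart, and with 1 library each it cannot be said whether neighbours in the order differ. The sum of the 10 genes was 1179 FPKM in the CHAPIR heart, against 1147 FPKM in the NC heart. Without Gpx3 it was 926 FPKM in the CHAPIR heart, against 1057 FPKM in the NC heart, a log2 ratio of the sums of -0.19.

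The promoters of the member past the threshold in each direction are shown beside the motif search, which read all of the members' promoters in the same way. Each runs 5′ to 3′ from 250 bases before to 50 bases after the RefSeq start (GRCm38.p6), with matched motifs in capitals. Gpx3 is at chr11:54902604-54902903 on the plus strand, and Prdx1 at chr4:116685349-116685648 on the plus strand.
Gpx3: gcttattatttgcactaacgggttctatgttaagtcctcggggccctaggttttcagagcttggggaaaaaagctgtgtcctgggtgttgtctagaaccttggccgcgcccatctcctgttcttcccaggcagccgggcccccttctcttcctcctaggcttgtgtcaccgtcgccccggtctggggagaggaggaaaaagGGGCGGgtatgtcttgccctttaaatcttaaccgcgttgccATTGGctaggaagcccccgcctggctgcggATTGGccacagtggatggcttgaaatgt
Prdx1: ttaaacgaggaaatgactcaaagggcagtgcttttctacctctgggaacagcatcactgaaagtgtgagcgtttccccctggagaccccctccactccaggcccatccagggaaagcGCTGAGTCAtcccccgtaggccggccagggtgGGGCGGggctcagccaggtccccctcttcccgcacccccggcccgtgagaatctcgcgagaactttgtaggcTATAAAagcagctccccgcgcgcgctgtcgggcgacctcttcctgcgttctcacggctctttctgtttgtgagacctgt
RefSeq promoters were found for 9 of the 10 genes, all but Prdx6. On both strands, 5 motifs were searched: the antioxidant response element core TGACNNNGC, bound by NRF2 with small MAF proteins, the interferon-gamma activated site TTCNNNGAA, the GC box GGGCGG, the TATA box TATAAA and CCAAT. The Prdx1 window held the antioxidant element on its minus strand, a TATA box and a GC box. The Gpx3 window held a GC box and CCAAT in 2 places, and none of the other 3 motifs. The RefSeq starts differ from those of the listed transcripts. Gpx3-201 starts at base 54902772, inside the Gpx3 window, and all matches of that window lie downstream of it. Prdx1-204 starts at base 116685544, and the TATA box lies downstream of it, while the antioxidant element and GC box lie upstream. Of 32817 promoter windows of the same length, 12.4% held TGACNNNGC, 8.29% TTCNNNGAA, 35.6% GGGCGG, 13.6% TATAAA and 37.4% CCAAT. No other window of the 9 genes held TGACNNNGC, and TTCNNNGAA was found in that of Sod2 only. A GC box was found in at least 1 window of each of the 9 genes. These matches describe letters and not bound sites.

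Few genes of the wider redox network passed the threshold. Over 12 lists of related genes, which share some members, 199 genes were tested, of which 8 passed 1.5-fold upward and 7 downward, with a median log2 ratio of -0.07. These are 4.02% and 3.52% of the 199, no larger than the 6.81% and 3.85% of all genes. Among the remaining peroxidases and superoxide dismutases, 0 of 9 passed the threshold in either direction. The cytosolic dismutase Sod1 was at 260 FPKM in the CHAPIR heart, against 281 FPKM in the NC heart. Ptgs2, the inducible cyclooxygenase, had the highest log2 ratio of that list, with a level of 1.08 FPKM in the CHAPIR heart, against 0.62 FPKM in the NC heart. Ptgs1 had the lowest ratio, with a level of 3.67 FPKM in the CHAPIR heart, against 4.91 FPKM in the NC heart.

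In the thioredoxin system, which returns electrons to peroxiredoxins, 1 of 20 genes was higher and 1 lower. These counts lie near the 6.81% and 3.85% of all genes. Glrx, the glutaredoxin that removes glutathione from protein thiols, was at 15.1 FPKM in the CHAPIR heart, against 8.28 FPKM in the NC heart. Srxn1, the sulfiredoxin that repairs overoxidised peroxiredoxins, was at 3.24 FPKM in the CHAPIR heart, against 6.34 FPKM in the NC heart. Txnip, an inhibitor of thioredoxin, had the next lowest ratio, with a level of 103 FPKM in the CHAPIR heart, against 145 FPKM in the NC heart.

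In glutathione synthesis and recycling, 0 of 15 genes passed in either direction, with Gsr, glutathione reductase, at 9.43 FPKM in the CHAPIR heart, against 8.08 FPKM in the NC heart. Of 19 glutathione transferases, 0 were higher and 2 lower, beside 6.81% and 3.85% of all genes. Negative ratios were found for 17 of the 19, beside 49.1% of all genes, with a list median of -0.18. Gsta1 had the lowest ratio, with a level of 0.34 FPKM in the CHAPIR heart, against 1.99 FPKM in the NC heart, followed by Gstm6 at 0.88 FPKM in the CHAPIR heart, against 2.12 FPKM in the NC heart. Gsta1 and Gstm6, the 2 lower genes, reached 1 FPKM in the NC heart only, and so entered the count through the heart where they were higher. Members of this family resemble each other closely, so values of single genes are uncertain.

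The NRF2 list, which holds the regulators and common targets of the main antioxidant transcription factor, had 0 of 30 genes higher and 1 lower, with a median of 0.06. The lower gene was Srxn1. Maff had the highest ratio, with a level of 4.38 FPKM in the CHAPIR heart, against 2.73 FPKM in the NC heart. The NADPH list had 2 of 18 genes higher and 1 lower, beside 6.81% and 3.85% of all genes. Nadk, the cytosolic NAD kinase, was at 13.4 FPKM in the CHAPIR heart, against 5.17 FPKM in the NC heart, and Mthfd2, a mitochondrial folate enzyme, at 2.03 FPKM in the CHAPIR heart, against 0.42 FPKM in the NC heart. Aldh1l1, a cytosolic folate enzyme, was lower at 0.94 FPKM in the CHAPIR heart, against 4.70 FPKM in the NC heart.

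Selenoprotein genes were examined because Gpx3 is a selenoprotein. Of 16 other selenoprotein genes 1 was higher and 1 lower, beside 6.81% and 3.85% of all genes, with a median of -0.08. Negative ratios were found for 10 of the 16, beside 49.1% of all genes. Selenos was at 21.9 FPKM in the CHAPIR heart, against 10.7 FPKM in the NC heart, and Selenoi at 0.53 FPKM in the CHAPIR heart, against 2.61 FPKM in the NC heart. Selenop, the secreted selenium carrier, was at 240.4 FPKM in the CHAPIR heart, against 212 FPKM in the NC heart. Among 12 genes for making and handling selenoproteins, 0 were higher and 1 lower, namely Trnau1ap at 4.29 FPKM in the CHAPIR heart, against 7.75 FPKM in the NC heart. Ratios were negative for 10 of these 12, with a median of -0.14.

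Genes for sources of superoxide and peroxide had 3 of 17 members higher and 0 lower, beside 6.81% and 3.85% of all genes. The higher genes included Ncf1 and Cybb, which encode subunits of the phagocyte NADPH oxidase. Ncf1 was at 4.24 FPKM in the CHAPIR heart, against 1.54 FPKM in the NC heart, and Cybb at 7.195 FPKM in the CHAPIR heart, against 3.53 FPKM in the NC heart. Nox4, the oxidase of cardiac muscle and vessel cells, had the lowest ratio of the list, with a level of 1.303 FPKM in the CHAPIR heart, against 1.92 FPKM in the NC heart. Of 34 peroxisomal genes 0 were higher and 1 lower. Negative ratios, as for Cat, were found for 28 of these 34, beside 49.1% of all genes. The lower gene was Hacl1 at 0.89 FPKM in the CHAPIR heart, against 4.04 FPKM in the NC heart. Of 22 genes of lipid peroxidation and ferroptosis 0 passed in either direction. Of 10 metallothionein and metal handling genes 1 was higher, the metallothionein gene Mt2 at 31.1 FPKM in the CHAPIR heart, against 15.9 FPKM in the NC heart, and 0 were lower.

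**Figure D5:**
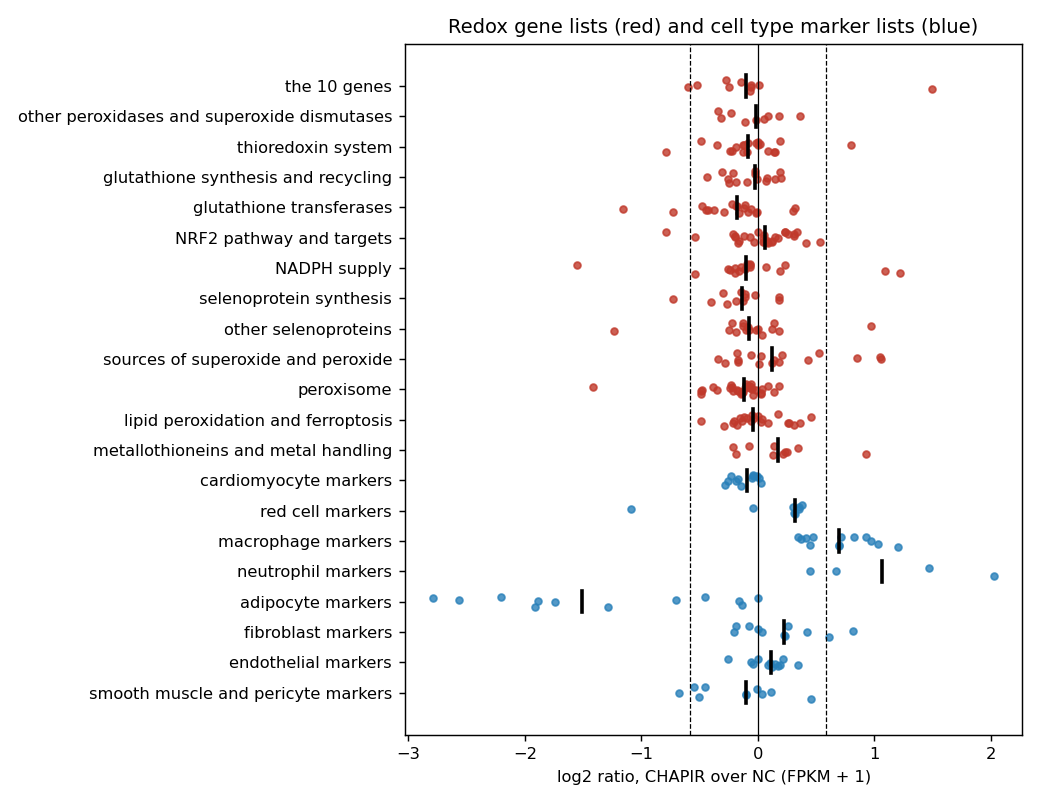
Log2 ratio of CHAPIR over NC (FPKM + 1) for each tested gene of the redox lists (red) and cell type marker lists (blue), 1 point per gene, with the list median as a black bar and dashed lines at 1.5-fold. Redox lists centre near 0, from -0.18 for glutathione transferases to 0.18 for metallothioneins and metal handling, while macrophage markers centre at 0.70 and adipocyte markers at -1.51.

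Cell type markers differed between the hearts beside these values. Their counts at 1.5-fold stand beside 6.81% of all genes higher and 3.85% lower. In whole tissue, fewer cells of a type and less RNA per cell cannot be told apart. Of 13 macrophage markers 8 passed 1.5-fold upward and 0 downward, with a summed level of 562 FPKM in the CHAPIR heart, against 319 FPKM in the NC heart. Of 12 neutrophil markers 5 were listed and 4 reached 1 FPKM, and 3 of these were higher and 0 lower, with a summed level of 24.7 FPKM in the CHAPIR heart, against 5.83 FPKM in the NC heart. Retnlg, 1 of those 3, and Csf3r reached 1 FPKM in the CHAPIR heart only, and so entered through the heart where they were higher. They were at 1.03 and 1.10 FPKM in the CHAPIR heart, against 0.28 and 0.54 FPKM in the NC heart. Ncf1 and Cybb moved in the direction of these markers, and the part of those cells in their values was not tested.

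Adipocyte markers had 0 of 12 higher and 8 lower, with a summed level of 509 FPKM in the CHAPIR heart, against 620.0 FPKM in the NC heart. Without Fabp4, a fatty acid carrier also found in endothelium and nearly alike at 422 FPKM in the CHAPIR heart, against 423 FPKM in the NC heart, the sums were 87.0 FPKM in the CHAPIR heart, against 197 FPKM in the NC heart. Ucp1 and Retn were listed at 0 in the CHAPIR heart. Gpx3, which fat cells also make, went the other way, and the part of fat in its value was not tested. Red cell markers had 0 of 8 higher and 1 lower, with a summed level of 3088 FPKM in the CHAPIR heart, against 2456 FPKM in the NC heart. The red cell gene Hbb-bs was at 1093 FPKM in the CHAPIR heart, against 839 FPKM in the NC heart. Prdx2, Cat and Gpx1, whose enzymes red cells carry in quantity, had log2 ratios between -0.15 and 0.01. The part of red cells in the values of Prdx2, Cat and Gpx1 was not tested. Cardiomyocyte markers had 0 of 12 past the threshold in either direction and a median of -0.10, beside the -0.11 of the 10 genes. Under quantile normalization the medians were -0.02 for these markers and -0.10 for the 10 genes. The part of cardiomyocytes in the values of the 10 genes was not tested. Endothelial markers had 0 of 12 past the threshold in either direction, fibroblast markers 2 of 11 higher and 0 lower, and smooth muscle and pericyte markers 0 of 10 higher and 1 lower.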

How the data were processed

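Total RNA of 1 CHAPIR heart and 1 NC heart was isolated in Trizol and turned into fragmented, random-primed libraries with dUTP in the second strand, per the labels' protocols. The deposited table gives 1 value per Ensembl transcript and library, treated as FPKM computed by the authors. The unit is not named and was inferred from the values. If the values were TPM, the ratios given here would be ratios of TPM. The 2 units differ by a factor per library, which the pseudocount and the floor would make unequal between genes. Cutadapt, HISAT2 2.0.5, StringTie, STAR 2.5.2b and GRCm38 are named without roles in the submitters' processing notes, and no annotation is named. The listed transcripts reach 0.50 in at least 1 library.

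Identifiers without version were matched to GENCODE M21, with 50 unmatched and left out. Of the 53 annotated transcripts of the 10 genes 24 were listed, 23 with the same version. Transcripts were summed per gene and ratios taken with a pseudocount of 1. Genes or transcripts reaching 1 FPKM in either library entered the counts at 1.5-fold. A gene below 1 FPKM in 1 heart could thus enter through the heart where it was higher, as Aldh1l1, Mthfd2, Selenoi and Hacl1 did. Named list genes are those among the 2 highest and 2 lowest of a list, and Sod1, Cybb and Retn were added after their values were seen. The members and lists were chosen with earlier results of these data known. Near-identical copies were sought with BLAST 2.17.0 at 90% identity over 50% of a transcript. It found 7 annotated copies, of Gpx4, Prdx1, Prdx2 and Prdx6, and 0 of them were in the table, so how their reads were shared is unknown. Work was done in Python 3.11.15 with pandas 2.3.3, Biopython 1.88 and matplotlib 3.10.9. The value of 1 gene that the naming rule selects is not reported here.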

Additional observations from a re-analysis of the deposited data

How the results depend on the processing

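No paired analysis was possible because there is a single library on each side. The depth is not known, so no limit from depth can be stated. In 10 other settings of the processing and 2 chosen after seeing the data (values times transcript length and a threshold of 1.4-fold), 1 member, Gpx3, was higher past the threshold. Leaving out Gpx3, also chosen after seeing the data, gave 0 of 9 higher and a median of -0.15. The count of lower members, 1 as reported, was 0 at a pseudocount of 5, where the log2 ratio of Prdx1 was -0.57, and 2 with the most abundant transcript only, with values times transcript length and at 1.4-fold, where Prdx6 joined Prdx1. The log2 ratio of Gpx3 ranged from 1.45 to 1.60, that of Prdx1 from -0.63 to -0.57, that of Prdx6 from -0.74 to -0.43 and that of Prdx5 from -0.28 to -0.04. Gpx1 ranged from -0.02 to 0.03 and so has no stable direction. The other 5 genes kept their sign. All 110 gene ratios under the alternatives shifted by under 1 SD of the ratios of genes at that level, as did 141 of 144 transcript ratios. The 3 exceptions were Gpx3-203, at -3.66 and -1.13 with pseudocounts of 0.1 and 5, and Prdx1-202, at -3.41 with 0.1. That SD is a spread between genes or transcripts and not between hearts, so staying within it is a loose criterion. Some settings could not change a member's ratio at all. These were the setting without a filter, the mean of at least 5 FPKM and the use of protein coding transcripts only. Counts over all genes, 778 higher and 440 lower at 1.5-fold, were 1108 higher and 692 lower when the pseudocount was 0.1, 271 higher and 137 lower when it was 5, 345 higher and 173 lower among genes averaging 5 FPKM or above, and 1206 higher and 848 lower when a gene's top transcript stood for it. The medians of all 22 lists, the 10 genes included, kept their sign under the 4 scalings tried.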
